A study of Drosophila melanogaster with 9 samples.

Results

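The 34 genes described here encode receptors for neuropeptides and peptide hormones in the brain of Drosophila melanogaster. They were chosen by name, as the transcripts in the deposited count table whose gene symbol or synonym is a member, with counts summed per gene. All 34 were found among 15413 genes and unmatched transcript entries, and all 34 passed the filter on low counts. The study asked what raised Dube3a, the fly homologue of the human ubiquitin ligase UBE3A (the fly gene symbol is Ube3a), does to brain RNA when its transgene is driven in glia or in neurons. The glial line (repo>Dube3a) drives the UAS-Dube3a insertion Das45 with repo-GAL4, a driver used for glia. The neuronal line (elav>Dube3a) drives the same insertion with the elav driver C155, which is used for neurons. The control carries the insertion alone (w, Das45). Each genotype has 3 libraries. All flies carry the insertion, and no library of a driver without the transgene was analysed here, so that a driver and the transgene it drives cannot be told apart. Flies were kept at 25 degrees and collected at 3 to 5 days by the growth protocol, or about 3 days by the design text. The labels name dissected whole brain, while the design text describes RNA from pools of 15 to 25 heads, and sex is not stated. Nothing says that the replicates came from separate crosses, so the p-values measure the spread between these libraries.

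Neuropeptides are cut from precursor proteins, released from neurons and endocrine cells, and act at a distance on receptors that are mostly coupled to G proteins. In the fly brain they set states such as hunger, sleep, mating receptivity and water balance, and several act in opposition to one another. Of the members, InR is a receptor tyrosine kinase for insulin-like peptides, and the other members belong to the G protein-coupled receptors.

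The libraries held between 35550949 and 60322417 counts. Ube3a, which checks the labels, had 220, 189 and 219 CPM (counts scaled to 1e+06 per library) in the glial libraries, 72.8, 61.5 and 76.9 CPM in the neuronal libraries and 30.6, 33.8 and 39.6 CPM in the control libraries. It was 6.04-fold higher in the glial line than in the control (edgeR quasi-likelihood test, adjusted p = 8.37e-05) and 2.03-fold higher in the neuronal line than in the control (edgeR, adjusted p = 0.014). Genes of other tissues were present: 21 gut enzyme genes summed to between 2292 and 50110 CPM in the glial libraries, 8924 and 50320 CPM in the neuronal libraries and 2158 and 53590 CPM in the control libraries. The 19 fat body genes, yolk proteins among them, summed to between 53750 and 172200 CPM in the glial libraries, 65390 and 85380 CPM in the neuronal libraries and 98180 and 161400 CPM in the control libraries. None of the marker genes of neurons, glia, fat body, hemocytes, gut, eye, muscle or sex in the table was at 0 in all libraries.

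Most receptor RNAs were of low abundance. The receptors together summed to 290.5, 317 and 291 CPM in the glial libraries, 345.1, 351.5 and 329.1 CPM in the neuronal libraries, and 362, 352.9 and 340.4 CPM in the control libraries. On the scale of CPM per kilobase of exon, which allows levels to be set side by side between genes, the median receptor stood at 1.55 in the glial line, 1.63 in the neuronal line and 1.64 in the control. A single library held between 3 and 2337 counts of a receptor. CapaR, the receptor for Capa periviscerokinins, was the lowest member in every genotype and the only member with a mean below 1 CPM, at 0.157 CPM per kilobase in the glial line, 0.205 in the neuronal line and 0.113 in the control.

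The leading receptors in the control were MsR1, a receptor for myosuppressin, at 14.2 ± 1.05 CPM per kilobase, and AkhR, the receptor for the lipid-mobilising adipokinetic hormone, at 9.28 ± 1.95 (SD, n = 3 each). With transcripts summed, as here, their order was the other way round in both driver lines: AkhR stood at 12.3 ± 1.04 in the glial line, and 12.3 ± 2.05 for the neuronal line, and MsR1 at 9.31 ± 0.727 and 8.77 ± 1.16 in those lines (SD, n = 3 each). CCKLR-17D3, a receptor for the satiety peptide drosulfakinin, held the third place in all 3 genotypes, at 7.12 ± 2.04 in the glial line, 7.34 ± 1.8 in the neuronal line and 7.01 ± 1.81 in the control (SD, n = 3 each). In the control it was followed by Dh44-R2, Dh31-R and TkR99D with means of 6.5, 6.03 and 5.25 CPM per kilobase. These 4 neighbours lay within the spread of their libraries. Proc-R, SPR and AstC-R1 held places 7, 8 and 10 in the control with 4.94, 4.72 and 3.82 CPM per kilobase. In the glial line the same 3 genes held places 21, 19 and 23 with 1.31, 1.48 and 1.3 CPM per kilobase.

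The order between genes depends on how reads shared by transcripts were counted, which is not given in the sources used here. The 34 receptors have 80 transcripts in the table, and of the 25 receptors with more than 1 transcript, 22 had transcripts whose mean CPM lay within 1.5-fold of one another. When each level was divided by the gene's number of transcripts, MsR1 (2 transcripts) and CCKLR-17D3 (1 transcript) came first and second in the control at 7.1 and 7.01 CPM per kilobase, and AkhR (4 transcripts) stood in place 7 at 2.32. On that scale MsR1 stood above AkhR in the driver lines too, at 4.66 against 3.08 in the glial line, and at 4.38 against 3.08 in the neuronal line. Proc-R, SPR and AstC-R1 then held places 33, 25 and 11 in the glial line, against places 14, 11 and 4 in the control. Differences between genotypes for a given gene do not rest on this division.

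**Figure D1:**
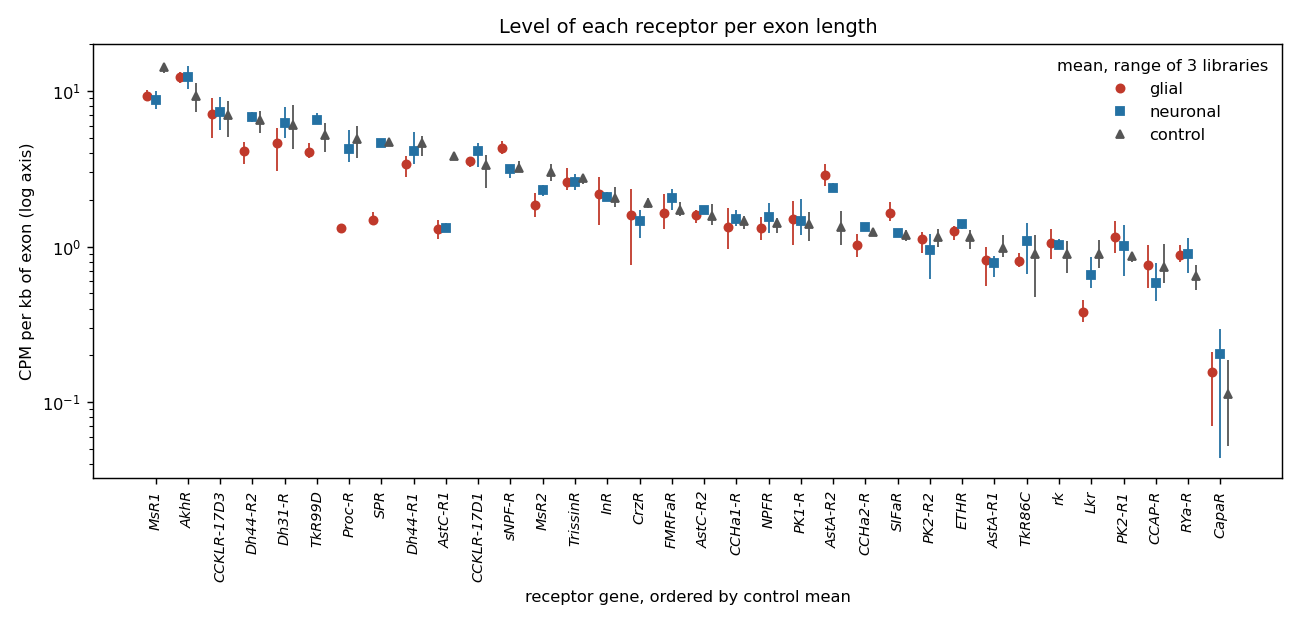
Mean level of each of the 34 receptors in CPM per kilobase of exon (log axis), in glial, neuronal and control libraries; lines span the 3 libraries of a genotype and genes are ordered by the control mean. Proc-R and SPR stand apart as low in the glial line, AstC-R1 is low in both driver lines, and CapaR is the lowest gene in every genotype.

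In the glial line, 5 receptors fell and 1 rose relative to the control. SPR, Proc-R, AstC-R1, Lkr and MsR1 were lower, by 1.53-fold to 3.77-fold, and AstA-R2 was 2.16-fold higher. The other 28 did not pass the test (edgeR quasi-likelihood test, adjusted p under 0.05 over 11430 genes). Over all genes tested, 1.88% were called lower and 2.54% higher. At an unadjusted p under 0.05, 4 receptors were higher and 7 lower, where 10.6% and 9.38% of all genes were, and DESeq2 called 1 higher and 7 lower, where it called 5.49% and 4.24% of all genes. The median log2 difference of the 34 receptors was -0.07, against 0.01 for all genes tested. In bulk RNA, fewer cells that express a receptor and less of its RNA per cell cannot be told apart.

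SPR is the receptor through which the male seminal sex peptide changes the behaviour of mated females, and it also responds to the myoinhibitory peptides made from the Mip precursor. It had 5.12, 5.26 and 6.21 CPM in the glial libraries, 17.5, 17.5 and 16.6 CPM in the neuronal libraries, and 18.3, 17.2 and 17.3 CPM in the control libraries. Every glial library lay well below every library of the other genotypes, whose values overlapped. SPR was 3.18-fold lower in the glial line than in the control (log2 difference -1.67 ± 0.13 SE, edgeR adjusted p = 0.000252), and its p ranked 14 among the 11430 genes tested. Its 3 transcripts were each lower, with log2 differences of -1.71, -1.82 and -1.58 (edgeR on transcripts, adjusted p from 0.00038 to 0.0007), although transcripts share exons and are not separate measurements. Exons of SPR overlap those of frma, which had 30.2, 37.2 and 38.4 CPM in the glial libraries and 23.6, 16.4 and 23.1 CPM in the control libraries, a log2 difference of 0.75 (edgeR adjusted p = 0.0529).

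Proc-R binds proctolin, a peptide best known for its action on insect muscle. It had 4.89, 4.66 and 5.3 CPM in the glial libraries, 13.8, 21.4 and 13.2 CPM in the neuronal libraries, and 19.4, 22.5 and 14.1 CPM in the control libraries. The glial libraries were close to one another and below the lowest library of either other genotype. Proc-R was 3.77-fold lower in the glial line than in the control (log2 difference -1.91 ± 0.24 SE, edgeR adjusted p = 0.00302). Each of its 5 transcripts was lower as well, by between -1.7 and -2.12 on the log2 scale (edgeR on transcripts, adjusted p from 0.0023 to 0.017).

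AstC-R1 is a receptor for allatostatin C, an inhibitory peptide, and is related to the somatostatin receptors of vertebrates. It had 3.25, 4.31 and 3.78 CPM in the glial libraries, 4.1, 3.61 and 3.7 CPM in the neuronal libraries, and 10.8, 11.4 and 11.2 CPM in the control libraries. Both driver lines lay below all control libraries and overlapped each other. AstC-R1 was 2.94-fold lower in the glial line than in the control (log2 difference -1.56 ± 0.16 SE, edgeR adjusted p = 0.00115).

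MsR1 and MsR2 are receptors for myosuppressin, a peptide that relaxes visceral muscle. MsR1 had 32.6, 35.7 and 30.6 CPM in the glial libraries, 35.5, 30.5 and 27.3 CPM in the neuronal libraries, and 52.2, 46.2 and 53 CPM in the control libraries. All driver libraries lay below all control libraries. MsR1 was 1.53-fold lower in the glial line than in the control (log2 difference -0.61 ± 0.13 SE, edgeR adjusted p = 0.0296). MsR2 had 4.56, 6.43 and 5.07 CPM in the glial libraries, 6.22, 6.88 and 7.27 CPM in the neuronal libraries, and 9.97, 8.73 and 7.71 CPM in the control libraries. Its log2 difference between the glial line and the control was -0.72 ± 0.18 SE, which did not pass the test (edgeR adjusted p = 0.0593), although the groups did not overlap.

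Lkr, the leucokinin receptor, takes part in water balance and feeding. It was among the scarcest members, with 1.05, 0.954 and 1.33 CPM in the glial libraries, 2.5, 1.59 and 1.73 CPM in the neuronal libraries, and 3.23, 2.13 and 2.48 CPM in the control libraries. The glial libraries were the lowest, and the neuronal and control libraries overlapped. Lkr was 2.36-fold lower in the glial line than in the control (log2 difference -1.24 ± 0.27 SE, edgeR adjusted p = 0.0386).

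AstA-R2 is a receptor for allatostatin A, a peptide of feeding control, and is related to the galanin receptors of vertebrates. It had 6.71, 7.99 and 5.79 CPM in the glial libraries, 5.5, 6.06 and 5.27 CPM in the neuronal libraries, and 2.43, 3.99 and 3.06 CPM in the control libraries. All driver libraries lay above all control libraries. AstA-R2 was 2.16-fold higher in the glial line than in the control (log2 difference 1.11 ± 0.22 SE, edgeR adjusted p = 0.0242).

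The calls of SPR, Proc-R and AstC-R1 held in all 19 alternative analyses, with adjusted p of at most 0.00519, 0.0172 and 0.00943. Leaving out a library ended the other 3 calls in several cases. For AstA-R2 the edgeR adjusted p was 0.0532 without glial library 1, 0.0665 without glial 2, 0.0905 without control 1 and 0.0731 without control 3. For MsR1 it was 0.0724 without glial 1, 0.101 without glial 3, 0.124 without control 1 and 0.0865 without control 3. For Lkr it was 0.0971, 0.105 and 0.0751 without glial 1, 2 or 3, 0.0657 without neuronal 3, and 0.152, 0.0556 and 0.0812 without control 1, 2 or 3.

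**Figure D2:**
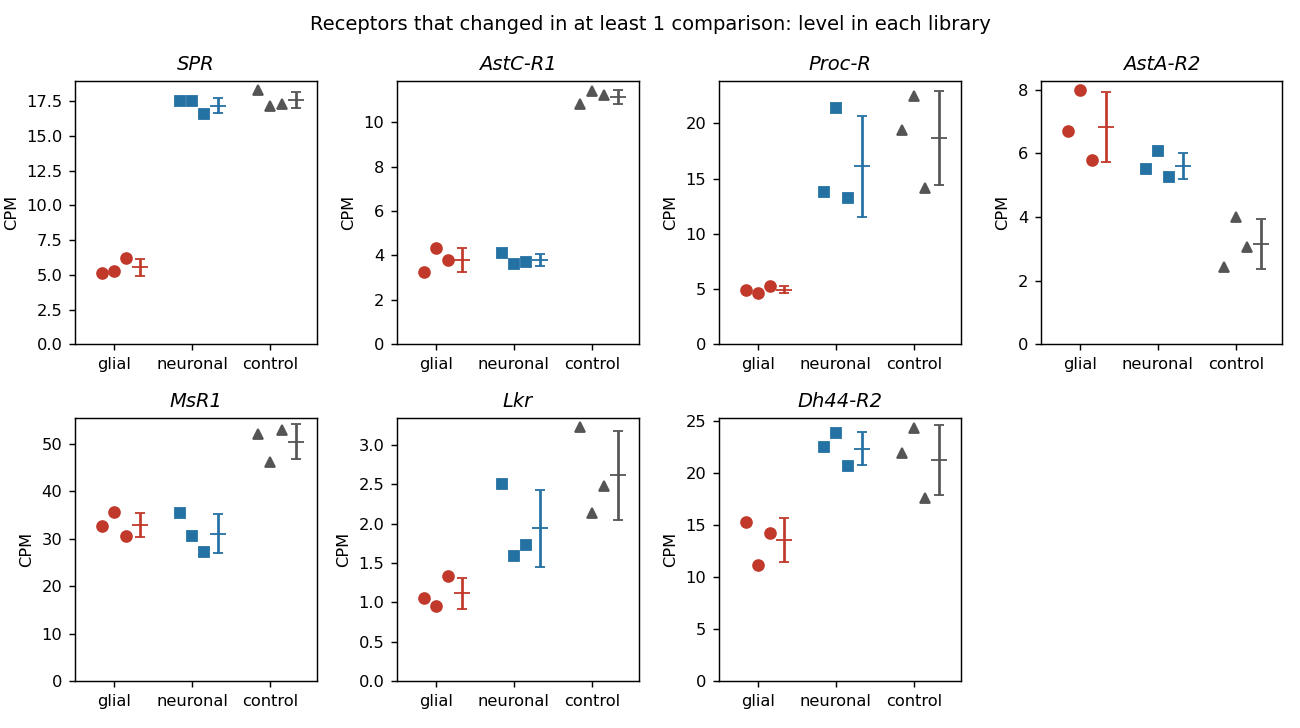
CPM in each of the 9 libraries for the 7 receptors that changed in at least 1 of the 3 comparisons; points are libraries, and bars are the mean and SD of the 3 libraries of a genotype. SPR and Proc-R are low in the glial line alone, at 5.53 and 4.95 CPM on average, while AstC-R1 averages 3.78 CPM in the glial line, 3.8 CPM in the neuronal line and 11.1 CPM in the control.

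In the neuronal line, 2 receptors fell relative to the control, AstC-R1 and MsR1, and none rose; 32 did not pass the test. Over all genes tested, 0.402% were called lower and 0.306% higher in this comparison. At an unadjusted p under 0.05, 2 receptors were higher and 2 lower, where 6.55% and 6.73% of all genes were, and the DESeq2 Wald test called 1 higher and 2 lower, where it called 1.95% and 2.16% of all genes. The receptor counts at the unadjusted p are near those shares. The median log2 difference was 0.06, against 0 for all genes tested.

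AstC-R1 averaged 3.8 ± 0.259 CPM in the neuronal line and 11.1 ± 0.289 CPM in the control (SD, n = 3 each), a 2.92-fold lower level (log2 difference -1.55 ± 0.16 SE, edgeR adjusted p = 0.00536). Its p ranked 8 among the 11430 genes tested, and the call held in all 19 alternatives, with an adjusted p of at most 0.0435. The glial and the neuronal comparison share the control libraries, so the 2 values are not independent of each other. MsR1 averaged 31.1 ± 4.12 CPM in the neuronal line and 50.5 ± 3.72 CPM in the control (SD, n = 3 each), a 1.62-fold lower level (log2 difference -0.70 ± 0.13 SE, edgeR adjusted p = 0.0496). This call was lost whichever of the 9 libraries was left out, with adjusted p between 0.066 and 0.216 and log2 differences between -0.805 and -0.613.

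AstA-R2, which rose in the glial line, averaged 5.61 ± 0.406 CPM in the neuronal line and 3.16 ± 0.785 CPM in the control (SD, n = 3 each). Its log2 difference of 0.83 ± 0.22 SE did not pass (edgeR adjusted p = 0.137), although DESeq2 called it (adjusted p = 0.0185). SPR and Proc-R did not pass in the neuronal line: their log2 differences from the control were -0.03 (95% interval -0.31 to 0.24, edgeR adjusted p = 0.943) and -0.21 (95% interval -0.73 to 0.31, edgeR adjusted p = 0.75). For Lkr the log2 difference was -0.43 ± 0.27 SE (edgeR adjusted p = 0.546).

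AkhR and RYa-R, the receptor for RYamide peptides, were among the 8 receptors with the smallest p in the neuronal comparison without passing. AkhR had 35.6, 42.1 and 39.9 CPM in the glial libraries, 45.9, 32.8 and 39.1 CPM in the neuronal libraries, and 29.3, 23.5 and 35.9 CPM in the control libraries. The ranges of the driver lines and the control overlapped, and the log2 difference was 0.41 ± 0.18 SE in each line (edgeR adjusted p = 0.241 for the glial line and 0.366 for the neuronal line). RYa-R had 1.91, 2.37 and 1.84 CPM in the glial libraries, 2.6, 1.56 and 2.05 CPM in the neuronal libraries, and 1.48, 1.21 and 1.76 CPM in the control libraries. Its log2 difference in the neuronal line was 0.48 ± 0.26 SE (edgeR adjusted p = 0.482).

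**Figure D3:**
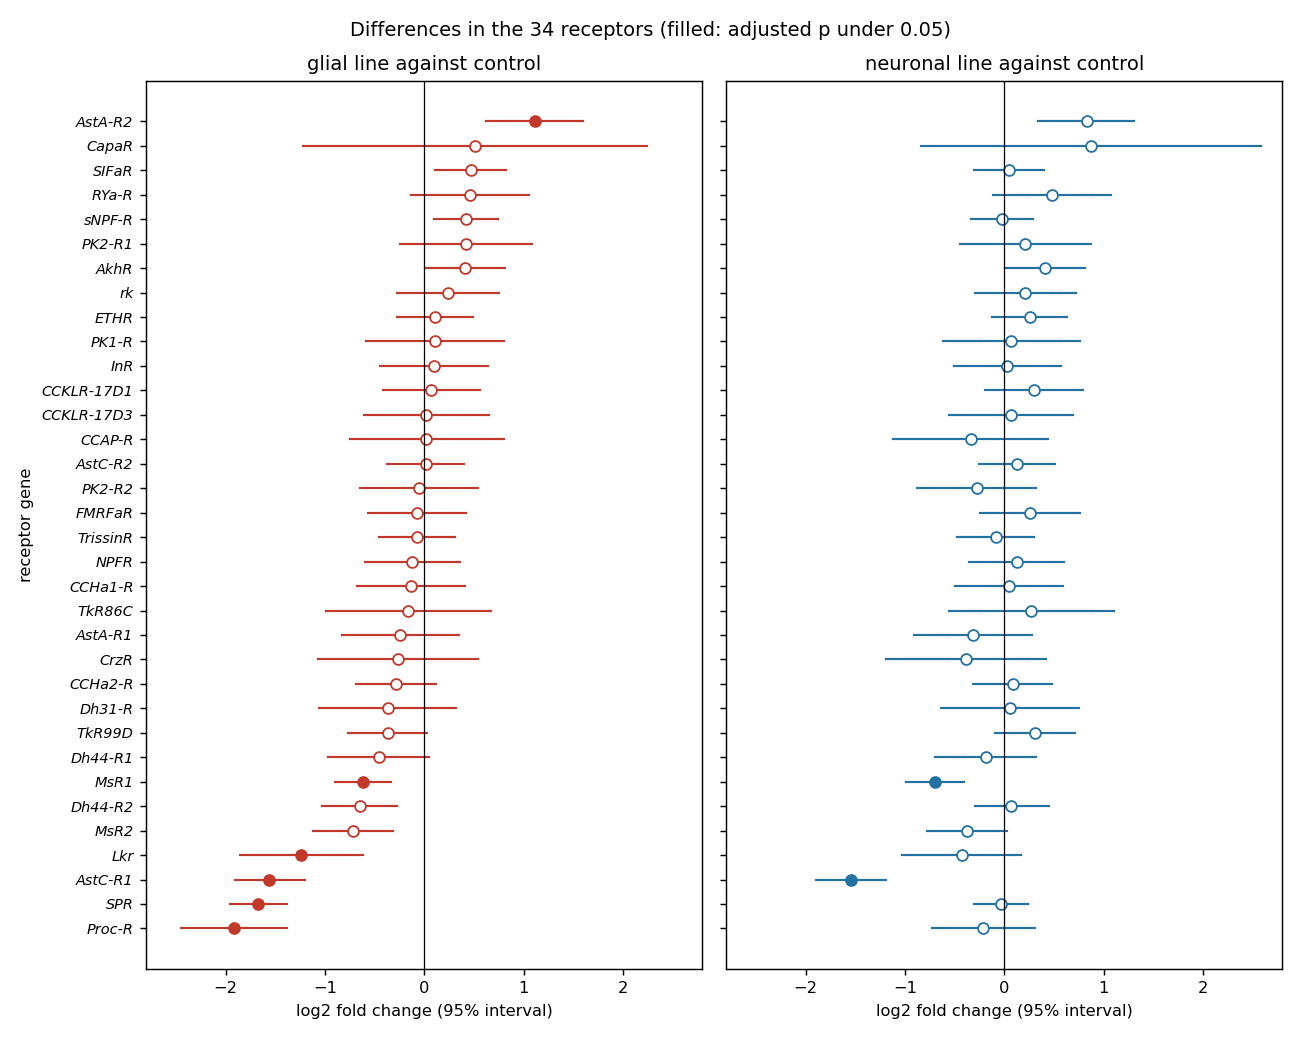
Log2 fold change of each of the 34 receptors with its 95% interval, for the glial line against the control (left) and the neuronal line against the control (right); filled points passed an adjusted p under 0.05. In the glial line 6 points are filled, with AstA-R2 the only one above 0, and in the neuronal line AstC-R1 and MsR1 are filled.

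The glial line was then set against the neuronal line, which carries the same transgene under another driver. SPR, Proc-R and Dh44-R2 were lower in the glial line and no receptor was higher; 31 did not pass. Over all genes tested, 1.67% were called lower and 2.02% higher. At an unadjusted p under 0.05, 2 receptors were higher and 5 lower, where 9.61% and 8.57% of all genes were, and DESeq2 called 0 higher and 4 lower, where it called 5.08% and 3.78% of all genes. The median log2 difference of the receptors was -0.08, against 0.01 for all genes tested.

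SPR averaged 5.53 ± 0.588 CPM in the glial line, against 17.2 ± 0.49 CPM for the neuronal line (SD, n = 3 each), a 3.11-fold lower level in the glial line (log2 difference -1.64 ± 0.13 SE, edgeR adjusted p = 0.000473). Its p ranked 8 among the 11430 genes. Proc-R averaged 4.95 ± 0.323 CPM in the glial line, against 16.1 ± 4.58 CPM for the neuronal line (SD, n = 3 each), a 3.26-fold lower level in the glial line (log2 difference -1.70 ± 0.24 SE, edgeR adjusted p = 0.00586). Both calls held in all 19 alternatives, with adjusted p of at most 0.0051 for SPR and 0.0288 for Proc-R. AstC-R1 and MsR1 had log2 differences between the driver lines of -0.01 (95% interval -0.36 to 0.34, edgeR adjusted p = 0.987) and 0.09 (95% interval -0.2 to 0.37, edgeR adjusted p = 0.81).

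Dh44-R2 binds diuretic hormone 44, a peptide related to corticotropin-releasing factor. It had 15.3, 11.2 and 14.2 CPM in the glial libraries, 22.5, 23.9 and 20.7 CPM in the neuronal libraries, and 21.9, 24.3 and 17.6 CPM in the control libraries. The glial libraries were the lowest 3. Its 1.65-fold lower level in the glial line than in the neuronal line stood at the edge of the threshold (log2 difference -0.72 ± 0.17 SE, edgeR adjusted p = 0.04999), and its difference from the control did not pass (log2 difference -0.65 ± 0.17 SE, edgeR adjusted p = 0.0635). Without glial library 1, 2 or 3 the adjusted p for the glial against the neuronal line was 0.054, 0.111 and 0.128. It was 0.137, 0.14 and 0.104 without neuronal 1, 2 or 3, and 0.0879 and 0.0549 without control 1 or 2. Exons of Dh44-R2 overlap those of fdl and CG34234, so that reads from these genes could be shared.

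The remaining receptors among the 8 smallest p in this comparison did not pass. Lkr, with its libraries given above, had a log2 difference of -0.81 between the glial and the neuronal line (edgeR adjusted p = 0.153). TkR99D, a tachykinin receptor, had 10.7, 11.1 and 13.3 CPM in the glial libraries, 17.6, 17.9 and 20.8 CPM in the neuronal libraries, and 15.5, 18.1 and 11.8 CPM in the control libraries. The glial libraries lay below the neuronal ones without overlap, with a log2 difference of -0.68 ± 0.18 SE (edgeR adjusted p = 0.0742). Without control library 3 it passed (edgeR adjusted p = 0.0478), as it did with DESeq2 (adjusted p = 0.0112). In 16 of the 19 alternatives TkR99D did not pass, with edgeR adjusted p of up to 0.212 on leaving out a library.

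The receptor sNPF-R, for short neuropeptide F, which promotes feeding, had 19.6, 22.7 and 18.6 CPM in the glial libraries, 13.1, 16 and 15.7 CPM in the neuronal libraries, and 14.3, 16.8 and 14.5 CPM in the control libraries. Its glial libraries were the highest 3, with log2 differences of 0.45 ± 0.14 SE from the neuronal line (edgeR adjusted p = 0.129) and 0.42 ± 0.14 SE from the control (edgeR adjusted p = 0.137). SIFaR, the receptor for SIFamide, a peptide of courtship and sleep, had 7.69, 7.39 and 9.7 CPM in the glial libraries, 5.99, 6.14 and 6.34 CPM in the neuronal libraries, and 6.42, 5.47 and 6 CPM in the control libraries. Again the glial libraries were the highest 3, at log2 differences of 0.42 ± 0.16 SE from the neuronal line and 0.47 ± 0.16 SE from the control (edgeR adjusted p = 0.191 and 0.137). CCHa2-R, the receptor for the nutrient-dependent peptide CCHamide-2, had 2.52, 3.03 and 3.56 CPM in the glial libraries, 3.76, 4.17 and 3.78 CPM in the neuronal libraries, and 3.57, 3.7 and 3.78 CPM in the control libraries. Its log2 difference between the glial and the neuronal line was -0.37 ± 0.18 SE (edgeR adjusted p = 0.326).

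The other 20 receptors passed in none of the 3 comparisons. Their log2 differences lay between -0.46 and 0.51 for the glial line against the control (smallest adjusted p 0.301), between -0.38 and 0.87 for the neuronal line against the control (smallest 0.566), and between -0.43 and 0.36 for the glial against the neuronal line (smallest 0.492, all edgeR). They include NPFR for neuropeptide F, the diuretic hormone receptors Dh31-R and Dh44-R1, the drosulfakinin receptors CCKLR-17D1 and CCKLR-17D3, the pyrokinin receptors PK1-R, PK2-R1 and PK2-R2, FMRFaR for FMRFamide, CrzR for corazonin and TrissinR for trissin. The receptors of the moulting and eclosion peptides ETHR, CCAP-R and rk, the bursicon receptor, are also among them, as are AstC-R2, AstA-R1, TkR86C, CCHa1-R, CapaR and InR.

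A lack of a call was not the same as a narrow estimate. Of the 28 receptors not called between the glial line and the control, 21 had a 95% interval that lay within a 2-fold difference in either direction, and 7 had an interval that reached it: CapaR, CrzR, Dh31-R, Dh44-R2, MsR2, PK2-R1 and RYa-R. Between the neuronal line and the control the same split was 25 and 7 of 32 receptors, and between the glial and the neuronal line 25 and 6 of 31. Some receptors varied widely within a genotype. CrzR had 2.46, 7.63 and 5.36 CPM in the glial libraries, against 6.69, 5.74 and 6.12 CPM in the control libraries. InR had 32, 27 and 15.6 CPM in the glial libraries, against 22.1, 20.3 and 27.5 CPM in the control libraries, a log2 difference of 0.10 ± 0.24 SE with a glial range wider than the control range. Groups that did not overlap in CPM were 5 receptors higher and 9 lower for the glial line against the control, where 12% and 12.9% of all genes tested were. For the neuronal line against the control they were 2 higher and 4 lower (10.7% and 10.5% of all genes), and for the glial against the neuronal line 2 higher and 6 lower (11.1% and 11.5%).

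Several members are pairs of receptors for the same peptide, and within 2 of these pairs the ratio in every driver library lay outside the range of the control libraries. The ratio of AstC-R1 to AstC-R2 per exon length was 0.646, 0.917 and 0.915 in the glial libraries, 0.854, 0.738 and 0.699 in the neuronal libraries, and 2.58, 2.07 and 2.78 in the control libraries. On this scale AstC-R1 was above its paralogue in the control libraries and below it in the driver libraries, while AstC-R2 itself had log2 differences from the control of 0.02 in the glial line, and 0.13 for the neuronal line (edgeR adjusted p = 0.97 and 0.805). The ratio of AstA-R2 to AstA-R1 was 2.87, 3.71 and 4.4 in the glial libraries, 2.67, 4.05 and 2.66 in the neuronal libraries, and 1.19, 1.97 and 1.09 in the control libraries. AstA-R1 had log2 differences of -0.24 in the glial line, and -0.31 for the neuronal line (edgeR adjusted p = 0.66 and 0.657). Which gene of a pair is higher depends on how shared reads were counted, while the fold difference of the ratio between lines does not. Per transcript, AstC-R1 was above AstC-R2 in all 3 genotypes, at 1.3 against 0.398 CPM per kilobase in the glial line, 1.31 against 0.427 in the neuronal line, and 3.82 against 0.393 in the control. On that scale AstA-R2 was above AstA-R1 in the glial line (0.967 against 0.41) and the neuronal line (0.793 against 0.392), and below it in the control (0.447 against 0.487). For MsR1 over MsR2 the ratios of the genotypes overlapped, at 5.89, 4.57 and 4.97 in the glial libraries, 4.7, 3.65 and 3.09 in the neuronal libraries, and 4.32, 4.36 and 5.67 in the control libraries. These were 3 of 7 such pairs examined, and no test of the ratios is given, because 3 libraries against 3 allow no exact p below 0.1.

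The receptors were next set beside the precursor genes of their ligands. Of 36 precursor genes, 35 were in the table and 31 passed the filter. Of these, 4 fell in the glial line relative to the control and none rose, where 1.88% of all genes were lower and 2.54% higher. The 4 were sNPF, Dh31, Akh and Trissin, none of which belongs to a receptor that changed. At an unadjusted p under 0.05, 2 precursor genes were higher and 12 lower, where 10.6% and 9.38% of all genes were. DESeq2 called 0 higher and 7 lower, where it called 5.49% and 4.24% of all genes. The median log2 difference of the 31 was -0.53, against 0.01 for all genes tested.

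The adipokinetic hormone gene Akh had 29.8, 26.9 and 29.2 CPM in the glial libraries, 55.3, 27.7 and 26.1 CPM in the neuronal libraries, and 115, 75.9 and 105 CPM in the control libraries. All driver libraries lay below all control libraries, with a log2 difference of -1.78 ± 0.29 SE for the glial line (edgeR adjusted p = 0.0106) and -1.44 ± 0.28 SE for the neuronal line, which did not pass (edgeR adjusted p = 0.0684). Its receptor AkhR stood on the other side of 0, at 0.41 in each line, without passing. Akh is made by the corpora cardiaca, which lie outside the brain.

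The precursor sNPF had 70.6, 70.8 and 63.2 CPM in the glial libraries, 93.9, 107 and 86.7 CPM in the neuronal libraries, and 137, 148 and 126 CPM in the control libraries. The 3 genotypes did not overlap. The log2 difference was -1.01 ± 0.12 SE for the glial line against the control (edgeR adjusted p = 0.00258) and -0.51 ± 0.12 SE for the neuronal line (edgeR adjusted p = 0.104). Dh31 averaged 9.41 ± 1.46 CPM in the glial line, 14.7 ± 2.46 CPM in the neuronal line and 21.4 ± 2.94 CPM in the control (SD, n = 3 each), and its log2 difference in the glial line was -1.19 ± 0.18 SE (edgeR adjusted p = 0.00811). Its receptor Dh31-R had -0.37 ± 0.31 SE in the same comparison (edgeR adjusted p = 0.558). Trissin had 14.7, 15.2 and 14.8 CPM in the glial libraries, 21, 21.2 and 19 CPM in the neuronal libraries, and 20.9, 21.7 and 22 CPM in the control libraries, a log2 difference of -0.53 ± 0.11 SE in the glial line (edgeR adjusted p = 0.0265). TrissinR had a log2 difference of -0.07 ± 0.17 SE there (edgeR adjusted p = 0.854). The Trissin call was lost on leaving out any of the glial or control libraries, with adjusted p between 0.0523 and 0.0928.

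The ligands of the receptors that changed in the glial line did not themselves pass. Proc, the proctolin precursor, had 31.8, 46.3 and 44.4 CPM in the glial libraries, 62.5, 77.4 and 46.5 CPM in the neuronal libraries, and 69.1, 70.8 and 56.7 CPM in the control libraries, a log2 difference of -0.68 ± 0.21 SE for the glial line against the control (edgeR adjusted p = 0.11). DESeq2 called it lower (adjusted p = 0.0291). Mip, which encodes ligands of SPR, averaged 9.57 ± 0.579 CPM in the glial line, 11 ± 1.27 CPM in the neuronal line and 13.8 ± 3.28 CPM in the control (SD, n = 3 each; edgeR adjusted p = 0.148 for the glial line). The sex peptide gene SP, whose product comes from the male accessory gland, was not analysed here.

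AstC averaged 14.2 ± 2.89 CPM in the glial line, 15.9 ± 2.3 CPM in the neuronal line and 20.7 ± 4.67 CPM in the control (SD, n = 3 each; edgeR adjusted p = 0.206 for the glial line and 0.508 for the neuronal line). The second allatostatin C precursor, AstCC, was scarce, at 0.686, 0.654 and 0.808 CPM in the glial libraries, 0.42, 0.716 and 0.186 CPM in the neuronal libraries, and 0.291, 0.177 and 0.265 CPM in the control libraries (log2 difference 1.53 ± 0.50 SE for the glial line, edgeR adjusted p = 0.131). Ms, the myosuppressin precursor, was among the most abundant precursors, with 87, 122 and 108 CPM in the glial libraries, 136, 77.5 and 103 CPM in the neuronal libraries, and 92.8, 89.3 and 102 CPM in the control libraries (edgeR adjusted p = 0.709 for the glial line). Lk, the leucokinin precursor, averaged 2.23 ± 0.544 CPM in the glial line, 2.08 ± 0.679 CPM in the neuronal line and 1.8 ± 0.281 CPM in the control (SD, n = 3 each; edgeR adjusted p = 0.617 for the glial line). AstA averaged 26.3 ± 1.85 CPM in the glial line, 33.5 ± 2.29 CPM in the neuronal line and 32.5 ± 4.06 CPM in the control (SD, n = 3 each; edgeR adjusted p = 0.217 for the glial line). Dh44 averaged 11.5 ± 2.49 CPM in the glial line, 12.2 ± 2.63 CPM in the neuronal line and 17.2 ± 0.76 CPM in the control (SD, n = 3 each; edgeR adjusted p = 0.901 for the glial against the neuronal line).

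Among the ligands of the other receptors given library by library, CCHa2 averaged 41.4 ± 10.3 CPM in the glial line, 23.1 ± 7.55 CPM in the neuronal line and 25.4 ± 4.92 CPM in the control (SD, n = 3 each; edgeR adjusted p = 0.184 for the glial line against the control). Tk varied widely between libraries, with 22.7, 18.5 and 29 CPM in the glial libraries, 16.9, 51.1 and 26.3 CPM in the neuronal libraries, and 35.5, 47 and 21.4 CPM in the control libraries. SIFa averaged 2.43 ± 0.668 CPM in the glial line, 2.88 ± 1.09 CPM in the neuronal line and 4.14 ± 1.72 CPM in the control (SD, n = 3 each). RYa, Burs, Pburs and Ilp4 were too low to be tested.

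Of 45 receptor and ligand pairs, 40 had both genes tested. In no comparison were both genes of a pair called. For the glial line against the control the receptor alone was called in 7 pairs, the ligand alone in 4 and neither in 29. For the neuronal line against the control the receptor alone was called in 3 pairs and neither in 37, and these 2 counts were again 3 and 37 for the glial against the neuronal line. No precursor gene passed in either of the last 2 comparisons. At an unadjusted p under 0.05 there were 0 higher and 7 lower of 31 for the neuronal line against the control (6.55% and 6.73% of all genes), and 2 higher and 6 lower of 31 for the glial against the neuronal line (9.61% and 8.57% of all genes). DESeq2 called 3 lower in the first of these (2.16% of all genes), and 1 higher and 3 lower in the second (5.08% and 3.78% of all genes).

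**Figure D4:**
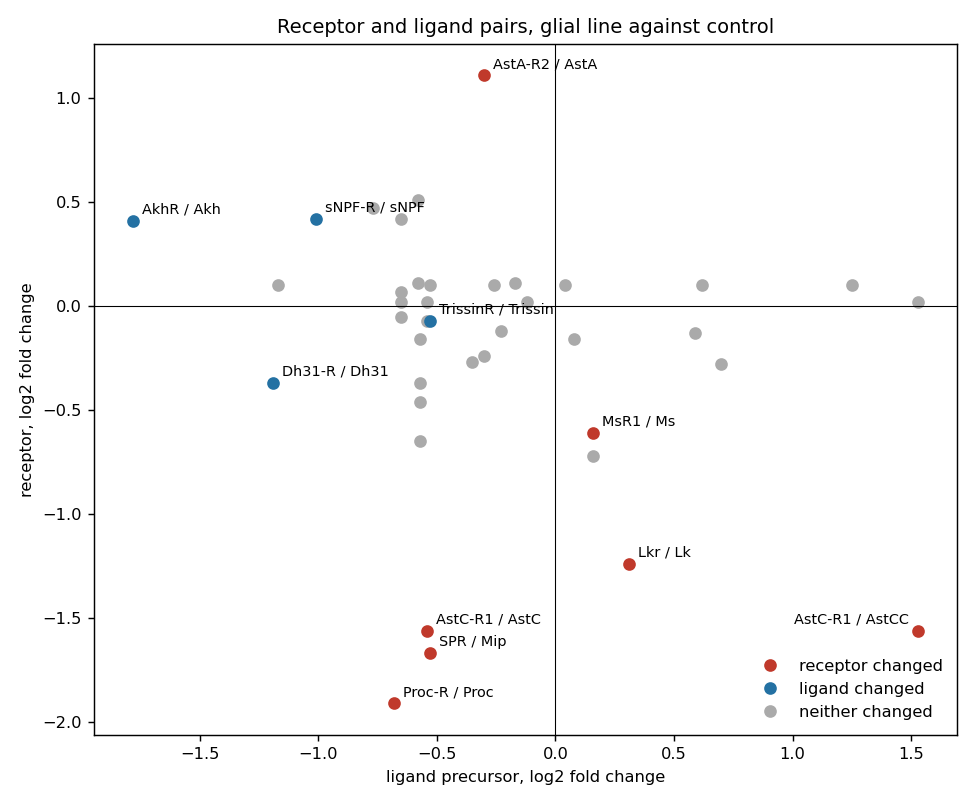
Log2 fold change of the receptor against that of its ligand precursor for the 40 pairs with both genes tested, glial line against control; colours mark whether the receptor, the ligand or neither passed an adjusted p under 0.05. The 7 pairs with a called receptor and the 4 with a called ligand are separate points, and a gene with several partners appears more than once.

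Genes that act before and after the receptors were read from the same analysis. Of 22 genes for peptide processing, release and breakdown, 1 was lower in the glial line than in the control and none was higher. Of all genes, 1.88% were lower and 2.54% higher. The called gene was the synaptotagmin Sytalpha, at a log2 difference of -0.55 ± 0.13 SE (edgeR adjusted p = 0.0489). At an unadjusted p under 0.05, 0 of the 22 were higher and 8 lower, where 10.6% and 9.38% of all genes were. DESeq2 called 4 lower (4.24% of all genes). None passed for the neuronal line against the control. There 2 were higher and 0 lower at an unadjusted p under 0.05 (6.55% and 6.73% of all genes), and DESeq2 called 0. None passed for the glial against the neuronal line. There 1 was higher and 8 lower at an unadjusted p under 0.05 (9.61% and 8.57% of all genes), and DESeq2 called 3 lower (3.78% of all genes).

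Of 38 tested genes for G proteins and second messengers, 0 passed between the glial line and the control (3 higher and 7 lower at an unadjusted p under 0.05, 4 lower by DESeq2) and 0 between the neuronal line and the control (4 higher and 0 lower at an unadjusted p under 0.05, 1 higher by DESeq2). Between the glial and the neuronal line 3 were lower. The G protein subunit gene Galphao had 125, 122 and 114 CPM in the glial libraries, 182, 177 and 171 CPM in the neuronal libraries, and 150, 150 and 157 CPM in the control libraries, so that the control lay between the driver lines (log2 difference of the glial from the neuronal line -0.55 ± 0.10 SE, edgeR adjusted p = 0.0168). The adenylate cyclase gene Ac3 had a log2 difference of -0.72 ± 0.15 SE and the phospholipase C gene Plc21C one of -0.43 ± 0.10 SE (edgeR adjusted p = 0.0312 and 0.0419).

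Of 21 insulin signalling genes, Lnk, an adaptor of the insulin receptor pathway, was lower in the glial line than in the control, with 32.8, 31.6 and 27.6 CPM in the glial libraries, 35.7, 33.8 and 38.9 CPM in the neuronal libraries, and 42.5, 41.6 and 43 CPM in the control libraries (log2 difference -0.47 ± 0.11 SE, edgeR adjusted p = 0.0439). It was the only gene of the list called in this comparison, where 1.88% of all genes were lower. At an unadjusted p under 0.05, 2 of the list were higher and 1 lower (10.6% and 9.38% of all genes). DESeq2 called 1 lower (4.24%). No insulin signalling gene passed for the neuronal line against the control (0 at an unadjusted p under 0.05 and 0 by DESeq2). None passed for the glial against the neuronal line (1 higher at an unadjusted p under 0.05, against 9.61% of all genes, and 0 by DESeq2). Of 14 further known or presumed peptide receptors, none passed in any comparison. At an unadjusted p under 0.05, 1, 2 and 1 of them were lower for the glial line against the control, the neuronal line against the control and the glial against the neuronal line. The shares of all genes were 9.38%, 6.73% and 8.57%. DESeq2 called 1, 0 and 1 lower, where it called 4.24%, 2.16% and 3.78% of all genes.

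Markers of cell types moved beside these results. Of 19 neuron markers, 0 were higher and 1 lower in the glial line than in the control (median log2 difference -0.13). None passed for the neuronal line against the control (median 0.29). There 8 were higher at an unadjusted p under 0.05 (6.55% of all genes), and 3 were higher by DESeq2 (1.95% of all genes). In the glial line 5 were lower and 0 higher than in the neuronal line (1.67% and 2.02% of all genes). All 19 had a log2 difference below 0, with a median of -0.47. At an unadjusted p under 0.05, 14 were lower and 0 higher (8.57% and 9.61% of all genes), and DESeq2 called 8 lower (3.78%). The summed neuron markers lay between 4501 and 5569 CPM in the glial libraries, 6019 and 6670 CPM in the neuronal libraries, and 5500 and 5627 CPM in the control libraries. Of 18 glia markers, 2 were higher and 5 lower in the glial line than in the control. Of 15 hemocyte markers 4 were higher, and of 18 tested fat body markers 3 were higher, where 2.54% of all genes were higher and 1.88% lower. Between the glial and the neuronal line, where SPR and Proc-R were also called, 5 hemocyte markers and 4 fat body markers were higher and none lower, and 2 glia markers were higher and 5 lower (2.02% of all genes higher and 1.67% lower). No gut marker passed for the glial line against the control, where 1 was higher at an unadjusted p under 0.05 and DESeq2 called 0. In the same comparison, of 20 eye markers 1 was higher, of 18 muscle markers 1 was lower, and of 10 sex markers none passed (0 at an unadjusted p under 0.05 and 0 by DESeq2). For the neuronal line against the control, 1 fat body marker was higher and 1 lower (0.306% and 0.402% of all genes). No sex marker passed there, but 3 were lower at an unadjusted p under 0.05 (6.73% of all genes), with a median log2 difference of -0.6. Between the glial and the neuronal line 1 sex marker was higher (2.02% of all genes), with a median of 0.66. The part of these markers in the receptor results was not tested, apart from the gut level. With the gut level as a covariate, the glial line against the control had 7 receptors called, with Lkr lost (edgeR adjusted p = 0.0913) and Dh31-R and Dh44-R2 gained (edgeR adjusted p = 0.0494 and 0.0235).

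By position, 5 of the 34 receptors lie on the X chromosome, SPR and Proc-R among them, 9 on 3L with AstC-R1, MsR1 and Lkr, 12 on 3R with AstA-R2, 5 on 2R with Dh44-R2, and 3 on 2L with no receptor that changed. SPR and Proc-R were the receptors called lower in the glial line against each of the other genotypes. The share of all called genes on the X chromosome was not examined, so whether their position follows a pattern by chromosome was not tested.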

How the data were processed

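Total RNA of 9 libraries (Ion Torrent, 3 per genotype) was analysed. The deposited table holds raw counts per RefSeq transcript, made by the authors; per the submitters' processing notes STAR and DESeq2 were used, with no version, role, genome build or strand setting (not given in the sources used here). RefSeq gene names were found for 31673 of 31838 transcripts, whose counts were summed per gene; the 165 without a name (0.3 to 0.68% of the counts) were kept as entries. Library totals were 60322417, 39205825 and 38070711 counts for glial libraries 1 to 3, 41080491, 40461345 and 36100125 for neuronal libraries, and 38554008, 35550949 and 37359569 for control libraries.

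The main test was that of edgeR 4.0.16 under R 4.3.3 (quasi-likelihood, TMM scaling, genotype alone, all 9 libraries in 1 model), after filterByExpr (minimum count 10, minimum total 15), with Benjamini-Hochberg adjustment over 11430 genes and a threshold of 0.05. CPM use TMM-scaled library sizes; exon lengths are unions of exons in the Ensembl annotation. limma 3.58.1 (voom) and DESeq2 1.42.0 were alternatives, and the steps were tested on simulated data. Values in every library are given for receptors called in any comparison and for the 8 smallest p in each; their ligands are named, as are at most 4 called genes of each other list. Members and lists were chosen with earlier results of these data known. No replicate pair had identical values. Receptor sequences were not used here.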

Additional observations from a re-analysis of the deposited data

Results flagged for a closer look

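For 3 receptors the effect of the glial driver line differed from that of the neuronal driver line by a direct test of the 2 lines (edgeR quasi-likelihood test; both effects are measured from the same control, so their difference is the contrast of the driver lines). SPR differed by -1.64 on the log2 scale (adjusted p = 0.000473), with lower values in 3 of 3 glial libraries than in any neuronal library. Proc-R differed by -1.7 (adjusted p = 0.00586), again in 3 of 3 glial libraries. Dh44-R2 differed by -0.72 (adjusted p = 0.04999), in 3 of 3 glial libraries, at the edge of the threshold. The call of Dh44-R2 was lost in 14 of the 19 alternatives, with edgeR adjusted p of up to 0.14 on leaving out a library. Over all genes tested, 11.5% had every glial library below every neuronal library.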

How the results depend on the processing

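SPR, Proc-R and AstC-R1 kept each of their calls in all 19 alternatives run on genes, and the number of receptors called varied as follows. For the glial line against the control it was 6 and became 3 with library totals in place of TMM, which lost AstA-R2, Lkr and MsR1 and moved the median of all genes to -0.1, and 4 with the 6 libraries of the comparison alone, which lost AstA-R2 (adjusted p = 0.0725) and Lkr (0.0709); leaving out single libraries gave 3 to 6, with the same 3 genes lost without glial 1, control 1 or control 3. For the neuronal line against the control it was 2 and became 1, with MsR1 lost, under library totals, limma-voom, no low count filter, a filter of 1 CPM in 3 libraries, the 6 libraries alone, the replicate block and the gut covariate, and on leaving out any library (1 to 1). For the glial against the neuronal line it was 3 and ranged from 2 to 4. Deviations of same-numbered libraries correlated at between -0.64 and 0.41. They cannot decide whether replicate numbers pair the libraries, because the gut level also differed within same-numbered sets. It was 2.97 in glial 2 and 6.12 in control 2 (mean log2 CPM). With the replicate block the counts were 4, 1 and 2, the calls lost being Lkr and MsR1, MsR1, and Dh44-R2. With the block 281, 15 and 241 of all genes were called, against 505, 81 and 422 without it. DESeq2 called 8, 3 and 4 receptors and 1113, 470 and 1013 genes. Direction reversed only for differences near 0 that passed nowhere: TrissinR (glial against control) without glial 1 (0.004; single libraries -0.263 to 0.004), SPR (neuronal against control) with library totals (0.026), Dh44-R2 (neuronal against control) with the gut covariate (-0.053) and without control 3 (single libraries -0.047 to 0.16), MsR1 (glial against neuronal) with library totals (-0.077), and AstC-R1 (glial against neuronal) with yolk and gut genes left out of the scaling (0.001) and without glial 1 or neuronal 1 (single libraries -0.132 to 0.091). The cause was not tested. Depth limits CapaR, which had as few as 3 counts in a library.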
